A study of Mus musculus with 12 samples.

Results

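The genes described here encode the proteins of the cytosolic ribosome. They were chosen by their symbols: Rpl or Rps followed by a number, with an a or x where the symbol has one, together with Rplp0, Rplp1, Rplp2 and Rpsa. The pattern found 76 genes among the 54735 symbols listed in all 12 embryos, 46 of the large subunit and 30 of the small subunit. The pattern itself uses no measured value, but it was set with earlier results of these data known. GENCODE annotates all 76 as protein-coding, and 29 of them hold small nucleolar RNA genes within their bounds. RNA came from the dorsal telencephalon, the embryonic forebrain wall that forms the cortex, of C57/Bl6 mouse embryos at stage E13.5, and stranded total RNA libraries were sequenced. Control embryos were Rnu11wt/flx::Trp53wt/wt::Emx1-Cre+, cKO embryos Rnu11flx/flx::Trp53wt/wt::Emx1-Cre+ and dKO embryos Rnu11flx/flx::Trp53flx/flx::Emx1-Cre+, with 4 embryos in each group. The product of Rnu11 is U11, one of the small nuclear RNAs with which the minor spliceosome recognises its rare introns, and Trp53 encodes p53. Emx1-Cre acts in pallial progenitors and their progeny and is carried by every embryo, so the controls are heterozygous for the Rnu11 deletion, and cells outside that lineage keep their floxed alleles in all groups.

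A ribosome is a small subunit, which reads the messenger RNA, and a large subunit, which joins amino acids. Both are built in the nucleolus from ribosomal RNA and proteins that are made in matched amounts, and growing progenitors of the developing cortex need many of them. The messenger RNAs of ribosomal proteins typically begin with a C followed by a run of C and U, the 5′ terminal oligopyrimidine tract, through which mTOR signalling governs their translation. When assembly fails, free Rpl5 and Rpl11 bind Mdm2, the ubiquitin ligase that degrades p53, and p53 accumulates.

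All 76 genes were transcribed in every embryo, and none was listed at 0 in any. Levels are in TPM, abundance per gene length scaled to a fixed sum, so they can be set side by side between genes, but they keep no sequencing depth. The median gene stood at 174 TPM over the 12 embryos, the median large subunit gene at 138 and the median small subunit gene at 216. A total of 50 genes reached 100 TPM, 11 reached 500 TPM and 9 stayed under 50 TPM. The most abundant was Rpl41, a very short protein of the large subunit, with control at 1333 ± 30.6 TPM, cKO at 1457 ± 153 and dKO at 1567 ± 137 (mean ± SD, n = 4 each). Next came Rpl13a, with means of 1356, 1406 and 1382 TPM in control, cKO and dKO. They were followed by Rplp1, an acidic stalk protein, at 879, 969 and 1004 TPM, and Rpl32 at 875, 949 and 987 TPM. The 3 lowest were Rpl27, at 11.9 ± 1.32, 13.9 ± 2.30 and 13.3 ± 0.929 TPM in control, cKO and dKO (mean ± SD, n = 4 each), Rpl36a, at 18.4, 19.8 and 20.6 TPM, and Rpl27a, at 20.2, 23.1 and 22.1 TPM. Rpl41 and Rpl27 thus lay 111-fold apart in TPM although their proteins enter the ribosome in equal number.

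Much of that spread lay between each gene and its copies. Ribosomal protein genes have many processed copies in the mouse genome, intronless and nearly identical to the coding sequence. A search of GENCODE transcripts with each coding sequence (at least 90% identity over at least 50% of it) found 983 copies, of which 967 were annotated pseudogenes and 16 other single-exon genes, for 73 of the 76 genes. Rpl8 and Rps3 were among the genes with none, the median gene had 9 and Rpl7a had 79. A total of 790 copies had a value above 0 and 234 had a mean of at least 1 TPM. Together the copies held 53.0% to 54.3% of the summed TPM of genes and copies in each embryo. They held more than 50% of the sum for 38 genes, 25 of the large and 13 of the small subunit, and under 10% for 17 genes. For the 9 genes under 50 TPM the copies held at least 83.3% of the sum, and for the 11 genes at or above 500 TPM at most 48.3%. When the copies were added, the median gene stood at 480 TPM and the range narrowed from 111-fold to 14.3-fold, from Rplp2 at 135 TPM to Rps29 at 1926 TPM. How the submitters' quantification assigned reads shared by a gene and its copies is not given in the sources used here, so the level of a single gene with abundant copies is uncertain.

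**Figure D1:**
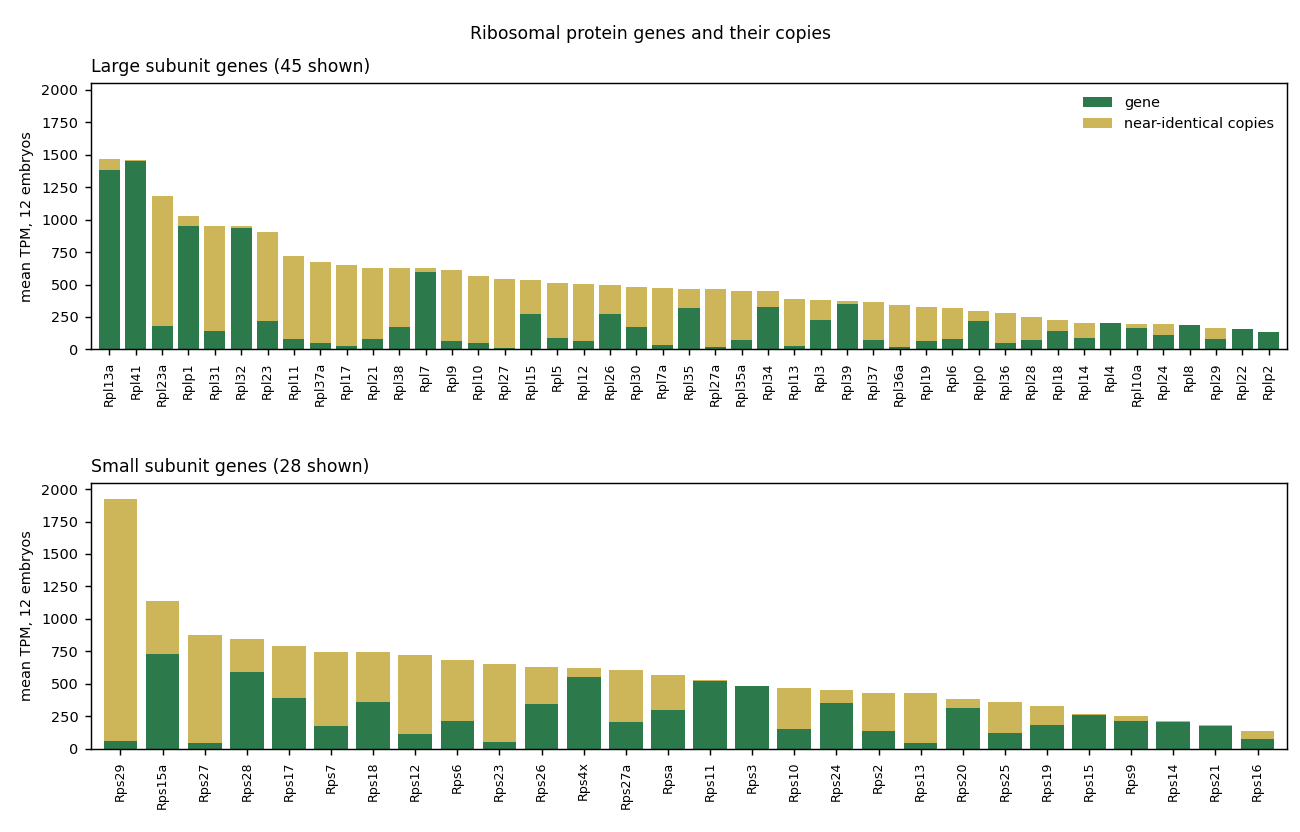
Mean TPM over 12 embryos for each of 45 large subunit genes (top) and 28 small subunit genes (bottom), as a stacked bar of the gene itself and its near-identical copies, in order of their sum. Rpl27, at 13.04 TPM, and Rps29 are almost wholly copies, whereas Rpl41 and Rpl32 have few reads on copies.

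The start sites were read for the pyrimidine tract described above, and 5 of those that hold it are shown so that it can be seen. Of the 76 genes, 56 were in the RefSeq table of start sites. In 13 of these 56 (23.2%) an annotated start fell on a C followed by at least 4 pyrimidines, against 800 of 26969 other genes (2.97%). Each line gives 30 bases of the coding strand, beginning 10 bases before the annotated start, with the tract in capitals.
Rpl15: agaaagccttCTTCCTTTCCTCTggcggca
Rps6: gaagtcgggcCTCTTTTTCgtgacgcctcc
Rpl35a: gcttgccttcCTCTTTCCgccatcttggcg
Rps15a: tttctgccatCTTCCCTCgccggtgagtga
Rpl14: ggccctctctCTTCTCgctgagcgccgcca
They lie in RefSeq build GRCm38.p6 at chr14:18270967-18270996 (minus strand), chr4:86857348-86857377 (minus), chr16:33056472-33056501 (plus), chr7:118116128-118116157 (minus) and chr9:120571507-120571536 (plus). The tract is 13 bases long in Rpl15, 9 in Rps6, 8 in Rpl35a and Rps15a and 6 in Rpl14. A start annotated a base or more away from the C is not counted, so a gene outside the 13 may still begin with a tract. In the 300 bases around the start (250 before, 50 after), searched on both strands with each motif counted on its own, whether or not it overlaps another, CCGGAAG was present in 23 of the 56 genes (41.1%) and in 9.86% of other genes. AAGATGGC was present in 5 (8.93%) against 3.18%, and TATAAA in 6 (10.7%) against 15.7%.

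Rnu11 stood at 521 to 724 TPM in control, 115 to 159 in cKO and 142 to 199 in dKO, and Trp53 at 2.63 to 6.37, 3.92 to 4.83 and 0.920 to 1.49 TPM, as the genotypes are labelled. Most genes were shifted together: the median log2 change of the 11764 genes tested (mean of 1 TPM or more) was 0.25 from control to cKO, -0.01 from control to dKO and -0.26 from cKO to dKO. Changes are therefore given as deposited and after median-shift centring, in which the median log2 difference between an embryo and the mean embryo is set to 0. Pallial progenitor markers were present in all embryos (summed over 8 markers, 133 to 208 TPM), and ventral telencephalic markers were low (1.68 to 5.29 TPM over 8, with Nkx2-1 and Gsx2 listed at 0 in some embryos). Cell type markers moved with genotype: the sum of 7 microglial markers was 10.1 to 12.2 TPM in control, 39.8 to 55.9 in cKO and 11.9 to 16.0 in dKO, and the sum of 8 neuronal markers 224 to 249, 298 to 364 and 154 to 235 TPM. As deposited, 6 of 7 microglial, 6 of 8 neuronal and 6 of 6 tested vessel markers were higher in cKO than in control. In dKO against cKO, 7 of 7, 7 of 8 and 2 of 6 were lower. No marker of these lists was listed at 0. Of all tested genes 34.3% rose and 38.8% fell in these comparisons as deposited, so the marker counts include the common shift. The part of these cell types in the changes below was not tested. In whole tissue, fewer cells of a type and less RNA per cell cannot be told apart.

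The summed level of ribosomal protein transcripts overlapped between genotypes, whereas their share of protein-coding TPM did not overlap between dKO and cKO. The sum over the 76 genes in control was 18712 ± 598 TPM, that in cKO 19919 ± 2100 TPM and that in dKO 19844 ± 1570 TPM (mean ± SD, n = 4 each). Embryo 4 of cKO, at 22927 TPM, had the highest sum, followed by embryo 1 of dKO at 21976 TPM. Of the 76 genes, 31 had their highest value of all 12 embryos in the former and 25 in the latter. Set against all protein-coding TPM, the genes took 11.3%, 13.2%, 11.96% and 11.7% in the control embryos, 11.2%, 10.97%, 12.1% and 11.5% in cKO, and 14.2%, 13.3%, 12.6% and 13.3% in dKO. Every dKO embryo thus lay above every cKO embryo, and control overlapped both. All protein-coding genes together held 14.6% to 16.3% of the TPM in control, 16.1% to 19.99% in cKO and 14.4% to 15.5% in dKO, and embryo 4 of cKO had the highest such share. Relative to the 78 mitochondrial ribosomal protein genes, which build the separate ribosome of that organelle, the summed TPM was 19.6 to 21.7 times as high in control, 17.7 to 19.04 in cKO and 21.0 to 22.2 in dKO. In this ratio cKO lay below both other groups.

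**Figure D2:**
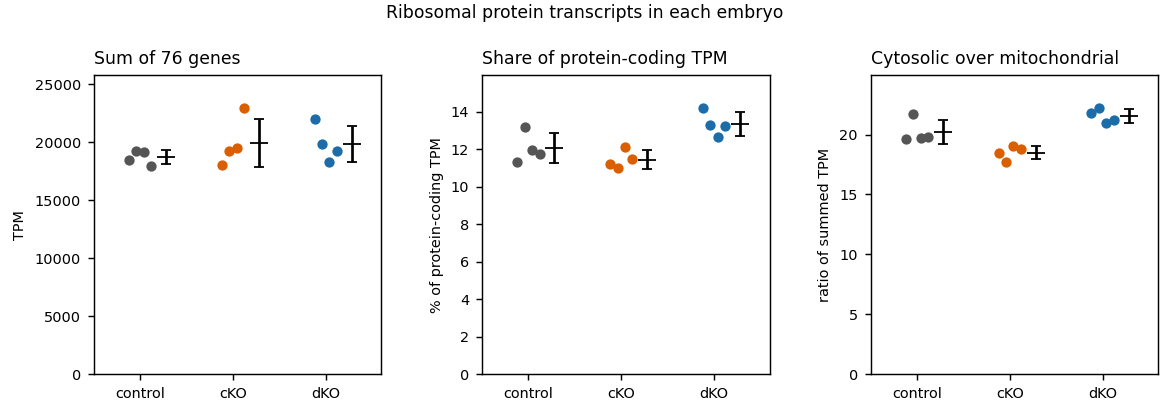
Each point is 1 embryo, with the mean and SD of 4 beside them: the summed TPM of 76 genes (left), their share of protein-coding TPM in percent (middle) and the ratio of their sum to that of 78 mitochondrial ribosomal protein genes (right). The sums overlap between genotypes, the share is 12.6% to 14.2% in dKO and 10.97% to 12.1% in cKO, and the ratio is lowest in cKO.

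Between cKO and control, the question is how these genes respond when U11 is lost. As deposited, 4 of the 76 rose and none fell (limma, Benjamini-Hochberg adjusted p under 0.05 over 11764 genes), while 34.3% of all tested genes rose and 1.09% fell. The 4 were Rpl7a, Rpl14, Rpl8 and Rpl21, all of the large subunit. The median change of the 76 genes was 0.11 on the log2 scale, 0.13 for large and 0.06 for small subunit genes, against 0.25 over all tested genes. The members' median change thus lay below that of all tested genes. After centring, 67 of 76 were negative and 9 positive, with a median of -0.14 (large -0.12, small -0.18). A single member, Rpl12, then fell and none rose, against 2.96% and 3.72% of all tested genes. These counts varied with the embryos kept. As deposited, Rpl7a was the 1 member called when embryo 2, 3 or 4 of control or of cKO was left out. Rpl7a and Rpl8 were called without embryo 1 of control, Rpl7a and Rpl14 without embryo 3 or 4 of dKO, whose values share in the estimate of spread, and 6 members without embryo 1 of cKO. The share of all tested genes called in each of these fits is not given here. The changes in count are therefore not read as particular to these genes. The median ran from 0.06 without embryo 4 of cKO to 0.16 without embryo 1 of cKO. After centring, Rpl12 was called in 4 of the 12 fits with an embryo left out, and the median ran from -0.17 to -0.09.

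Rpl7a, a protein of the large subunit, stood at 37.2, 32.2, 31.6 and 31.2 TPM in control and 39.3, 42.2, 40.5 and 44.7 TPM in cKO. All 4 cKO embryos lay above the controls, and the log2 difference was 0.33 ± 0.08 (SE; limma adjusted p = 0.0129, n = 4 each). Its 79 copies held 92.1% of its summed TPM; with them added the change was 0.24 and did not pass the test (limma adjusted p = 0.0766), and after centring it was 0.08 (adjusted p = 0.593). As deposited and without copies it passed the test in all 12 fits that left out 1 embryo, Rpl14 in 5, Rpl8 in 4 and Rpl21 in 2. Rpl14 stood at 76.9, 77.7, 80.0 and 79.1 TPM in control and 86.0, 94.4, 109 and 109 TPM in cKO. These groups also did not overlap, and the log2 change was 0.33 ± 0.11 (SE; limma adjusted p = 0.0299). Rpl8, which has no copy, stood at 187, 147, 170 and 175 TPM in control and 190, 208, 204 and 225 TPM in cKO. Its log2 change of 0.29 (limma adjusted p = 0.0485) again came from groups that did not overlap; 32.7% of all tested genes were likewise higher in every cKO embryo. Rpl21 overlapped between groups, at 67.1 to 75.96 TPM in control and 73.4 to 101 TPM in cKO, with a log2 change of 0.28 (limma adjusted p = 0.0499). Centred changes of Rpl14, Rpl8 and Rpl21 were 0.09, 0.04 and 0.03, and none passed the test.

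Rpl12, a protein of the stalk base where elongation factors dock, was the 1 member called lower than control after centring. Its values were 70.4, 69.2, 66.9 and 64.1 TPM in control and 57.7, 63.6, 64.2 and 70.8 TPM in cKO. As deposited the groups overlapped and the log2 change was -0.08 (limma adjusted p = 0.482); after centring it was -0.33 ± 0.08 (SE; limma adjusted p = 0.0373), and with copies added as well -0.18 (adjusted p = 0.34). Other negative centred changes among genes whose own values, without copies, were steady were -0.32 for Rpl39 and -0.31 for Rps29, a small subunit zinc-binding protein (limma adjusted p = 0.186 and 0.172). Copies held 96.9% of the summed TPM of Rps29. With them added its values were less steady, with deposited means of 1869 TPM in control and 1871 TPM in cKO. The most positive centred values, apart from Rpl28 described below, were 0.09 for Rpl14, 0.08 for Rps13, 0.08 for Rpl7a and 0.06 for Rplp2, none past the test.

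The comparison of dKO with cKO asks what removal of p53 changed when U11 is lost. Here the direction of the called genes depended on the scale. As deposited, 6 of 76 fell and none rose, against 38.8% and 0.612% of all tested genes. All 6, Rpl10, Rpl10a, Rpl11, Rpl29, Rpl35a and Rpl36, belong to the large subunit. The median of the 76 genes was -0.04 (large -0.07, small 0.03), against -0.26 over all tested genes. After centring, 70 of 76 were positive, the median was 0.23 (large 0.19, small 0.30), 9 members rose and none fell, against 2.10% and 3.83% of all tested genes. Among the 9 were Rpl13, Rpl18, Rpl37a, Rpl41, Rps14 and Rps15a, and the 9 centred changes ran from 0.37 to 0.52. Both counts varied with the embryos kept. As deposited, Rpl35a was the 1 gene left without embryo 2, 3 or 4 of cKO. Rpl10 and Rpl36 were left without embryo 4 of dKO, and 3 members were called without embryo 1 of dKO (Rpl11, Rpl35a and Rplp2), embryo 2 (Rpl10, Rpl29 and Rpl35a) or embryo 3 (Rpl28, Rpl29 and Rpl35a). For these deposited fits the share of all tested genes called is not given here, so their counts are not read as particular to the members. The deposited median ran from -0.10 to 0.03, the positive value being that without embryo 4 of cKO. After centring, no member was called without embryo 1 or 2 of cKO, and likewise none without embryo 4 of cKO and embryo 1 of dKO together, the embryos with the highest sums. Rpl37a was the 1 gene called without embryo 4 of dKO, Rpl13 and Rpl37a were called without embryo 1 of dKO, and 4 members, among them Rpl18, Rpl37a and Rps14, rose without embryo 3 of cKO. In these fits 0.599% to 1.5% of all tested genes rose, against 2.10% with all embryos. Without embryo 4 of control or embryo 4 of cKO 5 members rose, without embryo 3 of control 6, and without embryo 2 of dKO 5 rose while Rpl29 and Rpl35a fell, and 1.36% to 1.55% of all tested genes rose in these 4 fits. The centred median stayed between 0.18 and 0.27, and 67 to 71 members were positive, in each of these fits. When each embryo was instead scaled to an equal protein-coding sum, the median was 0.17, 11 members rose and none fell (1.36% and 8.19% of all tested genes). With copies added and centring together, all 76 changes were positive, from 0.03 to 1.03 with a median of 0.26, and 12 members rose and none fell (2.23% and 3.96% of all tested genes).

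**Figure D3:**
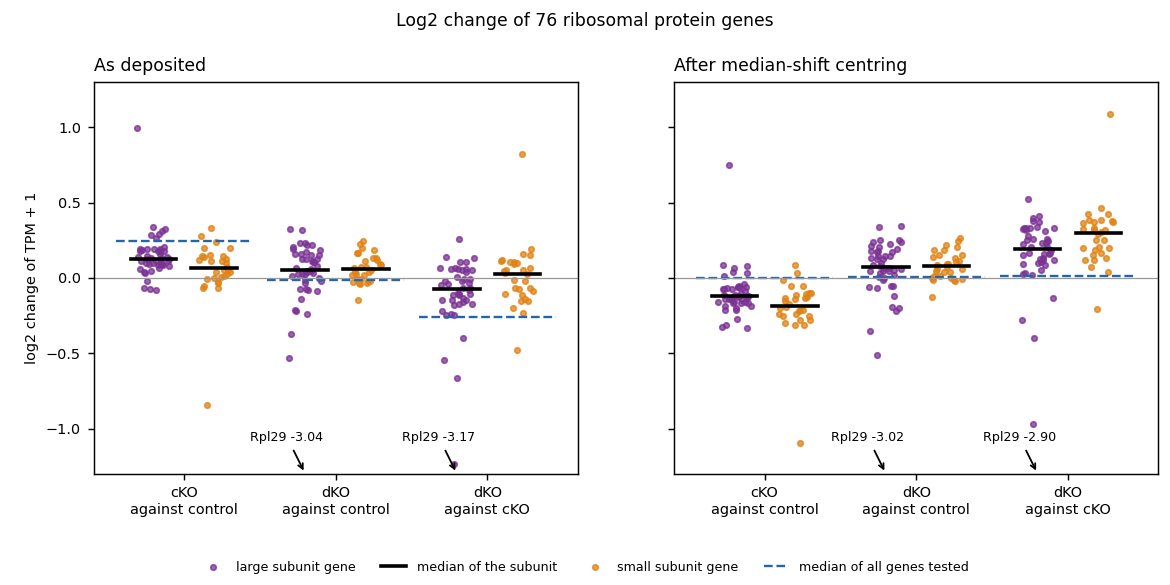
Log2 change of TPM + 1 for each of 46 large and 30 small subunit genes in the 3 comparisons, as deposited (left) and after median-shift centring (right), with the subunit's median as a black line and the median of all tested genes dashed. Rpl29 lies beyond the axis and its value is written at the arrow; in dKO against cKO the subunit medians lie at -0.07 and 0.03 as deposited and at 0.19 and 0.30 after centring.

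None of the 9 genes that rose after centring passed the test as deposited. Rpl41 stood at 1371, 1381, 1390 and 1686 TPM in cKO and 1766, 1528, 1454 and 1521 TPM in dKO. Embryo 4 of cKO was the 1 that reached into the dKO range, and the log2 change was 0.11 as deposited and 0.38 after centring (limma adjusted p = 0.407 and 0.042). Rpl37a, whose protein binds zinc, had the largest centred change of the 9, 0.52 ± 0.11 (SE; limma adjusted p = 0.0173), from 44.7, 47.7, 54.8 and 55.2 TPM in cKO and 72.2, 58.3, 54.6 and 57.6 TPM in dKO. Copies held 92.1% of its summed TPM, and with copies added the centred change was 0.32 (adjusted p = 0.08). Rps15a, one of the genes whose start is shown above, stood at 632 to 811 TPM in cKO and 690 to 963 TPM in dKO, with a centred change of 0.42 (limma adjusted p = 0.0499). Rps10, with a centred change of 0.42 (limma adjusted p = 0.0591), and Rps27, with 0.46 (limma adjusted p = 0.055), did not pass the test at that setting. Of the 17 genes with few reads on copies (under 10% of the sum), all were positive after centring, with a median of 0.32, and 4 rose, among them Rpl41 and Rps14. Of all 76 members 70 were positive and 9 rose, and of all tested genes 2.10% rose. These calls varied with the embryos kept, as described above.

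Rpl36 and Rpl10a were the 2 of the 6 called genes below cKO whose values were steady within each group. Rpl36 stood at 49.5, 49.4, 54.2 and 54.9 TPM in cKO and 39.3, 44.7, 43.9 and 46.7 TPM in dKO. The groups did not overlap (32.8% of all tested genes were lower in every dKO embryo), and the log2 change was -0.25 ± 0.08 (SE; limma adjusted p = 0.0341). Rpl10a stood at 155, 178, 181 and 189.8 TPM in cKO and 154, 137, 146 and 155 TPM in dKO, where embryo 1 of cKO met the highest dKO values, and the log2 difference was -0.25 ± 0.09 (SE; limma adjusted p = 0.0467). After centring both changes were 0.02. Rpl36 passed the test in 6 of the 12 fits that left out 1 embryo and Rpl10a in 1. Rps6, the small subunit protein phosphorylated downstream of mTOR, and Rpl23a, a docking site at the tunnel exit, were also lower in every dKO than in every cKO embryo, with log2 changes of -0.23 and -0.22 that did not pass the test (limma adjusted p = 0.166 and 0.0801). Copies held 68.3% and 84.8% of their summed TPM. With copies added the groups overlapped, at 659 to 866 TPM in cKO and 586 to 834 in dKO for Rps6. For Rpl23a they stood at 1021 to 1398 and 1115 to 1341 TPM.

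In the other 4 called genes, Rpl29, Rpl35a, Rpl10 and Rpl11, adding the copies turned the change to a positive value. Rpl29 encodes a small basic protein on the surface of the large subunit. It stood at 114, 99.8, 89.0 and 94.1 TPM in control and 95.3, 104, 117 and 117 TPM in cKO. In dKO it stood at 1.09, 107, 55.8 and 0.668 TPM, so embryos 1 and 4 had almost none and embryo 2 was at the control level. The log2 change against cKO was -3.17 ± 1.10 (SE; limma adjusted p = 0.0377). The summed copies of Rpl29 ran the other way, at 230, 38.5, 156 and 219 TPM in dKO, against 25.9 to 89.6 TPM in control and 29.7 to 80.2 TPM in cKO. Gene and copies together came to 231, 146, 212 and 219.5 TPM in dKO and 135 to 175 TPM in cKO, a log2 change of 0.40 (limma adjusted p = 0.0723).

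The copies differ from Rpl29 by few bases, and a stretch is shown because it carries a base at which the 3 copies differ from the gene. The stretch covers coding bases 395 to 454, counted from 1 at the A of the start codon, 5′ to 3′, with the differing bases in capitals.
Rpl29: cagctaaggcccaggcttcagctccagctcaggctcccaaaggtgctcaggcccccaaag
Gm13841: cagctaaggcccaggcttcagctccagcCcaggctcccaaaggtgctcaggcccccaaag
Gm14036: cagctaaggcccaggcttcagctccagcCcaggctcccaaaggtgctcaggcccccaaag
Gm6344: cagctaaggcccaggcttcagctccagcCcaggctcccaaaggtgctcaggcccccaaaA
The 3 copies share T423C, and Gm6344 also has G454A, the reference base of Rpl29 first in each. Over the aligned coding sequence each copy differs from Rpl29 at 3 bases, of 480 in Gm13841 and Gm6344 and of 477 in Gm14036. In GRCm38 Rpl29 lies at chr9:106429454-106431568 (plus strand), and the copies, which have no intron, at chr5:115801677-115802159 (minus), chr2:134803949-134804428 (plus) and chr13:55085777-55086259 (plus). Gm13841 stood at 99.8, 5.28, 80.3 and 86.9 TPM in dKO, Gm14036 at 46.1, 0.237, 26.9 and 51.3 TPM and Gm6344 at 47.3, 14.2, 29.2 and 49.98 TPM. Embryo 2, in which Rpl29 was at the control level, was the lowest of the 4 in each copy. Gm13841 was also at 71.3 TPM in embryo 4 of control and 60.2 TPM in embryo 1 of cKO, and at most 5.28 TPM in the other embryos of those groups. The cause of this exchange between gene and copies was not tested.

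Rpl35a, whose human gene is mutated in Diamond-Blackfan anaemia, showed the same arrangement. It stood at 74.3, 82.4, 97.4 and 89.5 TPM in cKO and 54.0, 85.9, 40.3 and 43.6 TPM in dKO, with embryo 2 again at the level of the other groups, and its log2 change was -0.67 ± 0.19 (SE; limma adjusted p = 0.0173). Of the 12 fits that left out 1 embryo, Rpl35a passed in 11, Rpl10 in 7, Rpl29 in 6 and Rpl11 in 3. Its copies summed to 554, 312, 458 and 487 TPM in dKO and 296 to 418 TPM in cKO, and with them added the change was 0.24. Rpl10, an X-linked protein that completes the large subunit, stood at 54.3, 61.1, 63.2 and 65.2 TPM in cKO and 33.0, 56.6, 28.7 and 53.8 TPM in dKO. Its log2 change was -0.55 (limma adjusted p = 0.0343), and 0.08 with copies added. Rpl11 stood at 75.9 to 108 TPM in cKO and 61.0 to 87.3 TPM in dKO, with a log2 change of -0.40 (limma adjusted p = 0.0493), and 0.04 with copies added. Without copies 10 of the 76 genes had an SD within groups above 15% of the mean (Rpl3, Rpl10, Rpl11, Rpl28, Rpl29, Rpl35a, Rps13, Rps16, Rps27 and Rps27a), and with copies 5 did (Rpl29, Rps2, Rps12, Rps16 and Rps29). Rplp0, the core of the stalk, had the reverse result: it stood at 221 to 261 TPM in cKO and 166, 255, 186 and 265 TPM in dKO, but its copies at 43.4 to 53.0 TPM in cKO and 246, 54.9, 206 and 56.1 TPM in dKO. With copies it was the 1 member that rose as deposited (0.30; 0.555% of all genes tested at that setting rose).

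**Figure D4:**
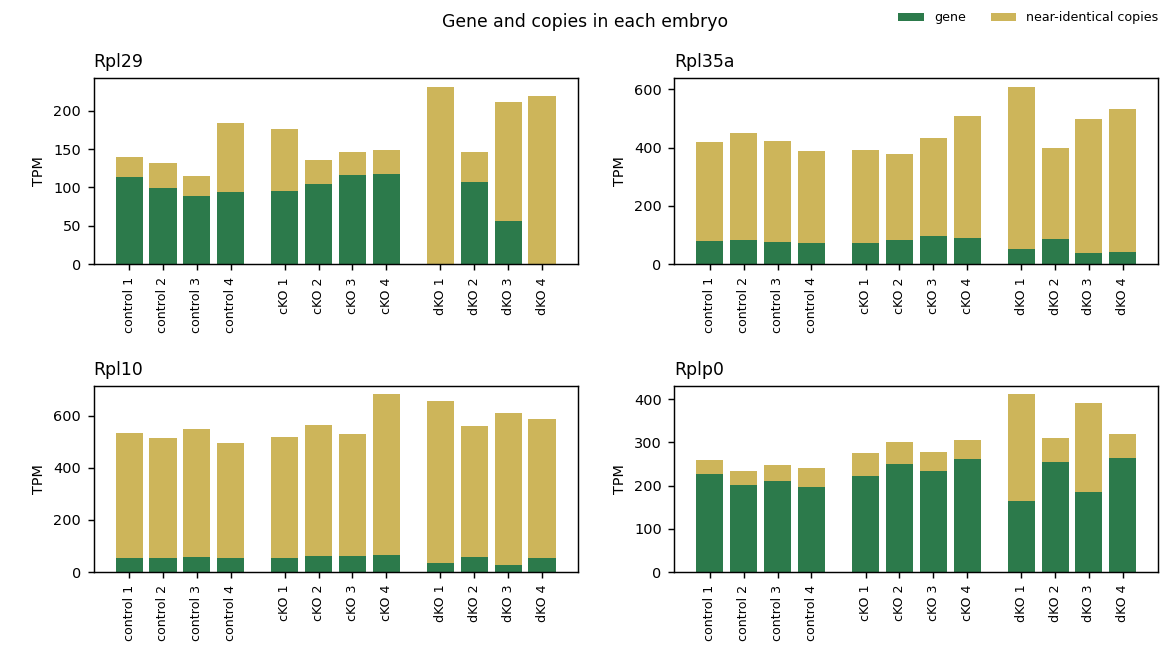
TPM in each of 12 embryos of Rpl29, Rpl35a, Rpl10 and Rplp0, as stacked bars of the gene (green) and its copies (yellow). In dKO embryos 1 and 4 the bar of Rpl29 is almost wholly copies (230 and 219 TPM), whereas embryo 2 resembles control.

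Rps16 and Rpl28 also varied by embryo more than by genotype. Rps16, a protein of the small subunit head, stood at 198, 122, 27.1 and 42.3 TPM in control, 48.9, 33.2, 38.6 and 41.4 TPM in cKO and 68.2, 200, 37.7 and 50.8 TPM in dKO. A few embryos set its centred changes, -1.09 in cKO relative to control and 1.09 in dKO relative to cKO, and neither passed the test (limma adjusted p = 0.321 and 0.295). Rpl28 stood at 65.1, 42.1, 46.3 and 47.9 TPM in control, 53.7, 118, 116 and 137 TPM in cKO and 51.5, 8.004, 121 and 58.2 TPM in dKO. Its centred change was 0.75 from control to cKO and -0.97 from cKO to dKO (limma adjusted p = 0.537 and 0.367). With copies added and as deposited, Rpl28 rose in cKO, by 0.43, together with Rpl8 and Rpl14 (35.4% of all genes tested at that setting rose). Rps13 stood at 31.7 to 58.5 TPM in control, 40.9 to 73.1 in cKO and 25.1 to 60.4 in dKO, with a centred change of -0.21 for dKO against cKO that did not pass the test (limma adjusted p = 0.684).

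The comparison of dKO with control shares its embryos with the other 2 comparisons and asks what remained when both genes were deleted. No member passed limma's test in either direction, as deposited or after centring, against 5.19% and 8.43% of all tested genes. At an unadjusted p under 0.05 there were 9 members as deposited, all of the large subunit, and 11 after centring, against 20.1% and 24.5% of all tested genes. The median change was 0.06 (large 0.05, small 0.06) as deposited, against -0.01 over all tested genes, and 0.08 after centring. Without embryo 2 of dKO, Rpl29 and Rpl35a fell, as deposited and after centring, and without embryo 1 of control Rpl7a rose after centring. In the centred fits, 3.99% of all tested genes fell without embryo 2 of dKO and 3.42% rose without embryo 1 of control. The share for the deposited fit is not given here. Without overlap between the groups, 4 members were higher and 1 lower in dKO (5.14% and 8.44% of all tested genes). Rpl22, an RNA-binding protein of the large subunit, stood at 133, 139.6, 138 and 128 TPM in control and 206, 166, 145 and 162 TPM in dKO, with a log2 change of 0.32 (limma adjusted p = 0.176). Rpl37a stood at 44.8 to 51.2 and 54.6 to 72.2 TPM (0.32; limma adjusted p = 0.107), Rpl41 at 1308 to 1375 and 1454 to 1766 TPM (0.23; 0.233) and Rplp1 at 859 to 900.3 and 924 to 1171 TPM (0.18; 0.41). Rpl10a was lower, at 163 to 181 and 137 to 155 TPM, with a log2 change of -0.21 (limma adjusted p = 0.21). The other extremes after centring were 0.27 for Rps27, 0.25 for Rpl14, -3.02 for Rpl29, -0.51 for Rpl35a, -0.35 for Rpl10, -0.22 for Rpl28 and -0.20 for Rpl11, none past the test. When protein-coding sums were made equal, Rpl7a, Rpl18, Rpl37a and Rpl41 rose (5.46% of all tested genes did). With copies added Rplp0 rose, by 0.54 (1.85% of all genes tested did), and with centring too Rpl5 rose as well, by 0.44 (3.93%).

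With all embryos kept, the 2 subunits differed by at most 0.10 in median change. The large minus small difference of median log2 change was 0.06 from control to cKO, -0.01 from control to dKO and -0.10 from cKO to dKO. Centring, which moves both subunits equally, leaves it as it is. With each embryo left out, the difference ran from 0.04 to 0.09, from -0.02 to 0.03 and from -0.15 to -0.05 in the same order. Within embryos, the mean log2 level of large minus that of small subunit genes had a control mean of -0.684 ± 0.0271, a cKO mean of -0.586 ± 0.0490 and a dKO mean of -0.771 ± 0.0859 (SD, n = 4 each). Every cKO embryo (-0.643 to -0.542) lay above every control embryo (-0.714 to -0.648) and every dKO embryo (-0.850 to -0.650), by a small distance at the nearest. Rpl29, near 0 TPM in 2 dKO embryos, enters the large subunit means. Rps16, which varied by embryo more than by genotype, enters the small subunit means. Whether the groups stay apart without these genes was not tested, so the separation is not read as a difference between whole subunits. The large subunit held each of the 6 genes called lower in dKO, several with unstable values, and with copies added the difference for dKO against cKO was -0.05. Across the 12 embryos, after group means were removed, the median correlation between members was 0.46 over 2850 pairs, 0.47 among large and 0.47 among small subunit genes. These values share library and scale. Rpl29 and Rplp0 were the lowest, with a median of -0.26 and -0.08 with the other members.

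The 5S particle of Rpl5, Rpl11 and 5S RNA, and its assembly factors, link ribosome assembly to p53. Rpl5 in control was at 86.8 ± 6.81 TPM, in cKO at 92.5 ± 7.49 TPM and in dKO at 82.5 ± 7.64 TPM (mean ± SD, n = 4 each). It did not pass the test in any comparison as deposited or centred. Copies held 83.0% of its summed TPM. With them added the means were 434 ± 54.4, 527 ± 83.0 and 582 ± 87.2 TPM in control, cKO and dKO, so dKO was then the highest. With copies and centring Rpl5 rose in dKO against control, as given above. Rpl26, which binds Trp53 messenger RNA, was at 261, 278 and 270 TPM in the same order, and Rps27a, a small subunit protein made as a fusion with ubiquitin, at 203, 197 and 214 TPM, neither called. Mdm2, itself a p53 target, had control values of 14.3, 14.8, 15.3 and 14.5 TPM, cKO values of 26.1, 29.2, 27.1 and 29.0 TPM and dKO values of 15.4, 11.1, 12.002 and 11.1 TPM. It rose in cKO by 0.87 on the log2 scale and fell in dKO against cKO by 1.12 (limma adjusted p = 0.000147 and 2.41e-05), and after centring by 0.62 and 0.85 (adjusted p = 0.00257 and 0.000468). Heatr3, which carries Rpl5 into the nucleus, had means of 3.90, 4.71 and 2.86 TPM in control, cKO and dKO and fell in dKO against cKO by 0.56 (limma adjusted p = 0.00131), and by 0.29 after centring (adjusted p = 0.0373). Rpf2, Rrs1 and Sdad1, which help place the 5S particle or export the large subunit, did not pass the test: their means were 21.5, 22.3 and 19.4 TPM, 2.18, 2.36 and 2.09 TPM, and 9.47, 12.03 and 10.01 TPM. Of this list of 7 genes, 1 rose in cKO as deposited and 3 fell in dKO against cKO, Rpl11 being the third, beside 34.3% and 38.8% of all tested genes.

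The next lists, of other parts of the ribosome, stand beside the 34.3% of all tested genes that rose in cKO against control and the 38.8% that fell in dKO against cKO. Of the 4 stalk genes Rplp0, Rplp1, Rplp2 and Rpl12 none passed the test in any comparison, with medians of 0.17, 0.05 and -0.09 for cKO against control, dKO against control and dKO against cKO. Of the 6 tunnel exit genes Rpl17, Rpl19, Rpl23a, Rpl26, Rpl31 and Rpl35 none passed, with medians of 0.11, 0.03 and -0.13. Of 14 genes mutated in Diamond-Blackfan anaemia, 2 fell in dKO against cKO (Rpl11 and Rpl35a) and no others were called, with medians of 0.10, 0.03 and -0.05. After centring the 14 were all negative in cKO against control and 12 of 14 positive in dKO against cKO. Of all 76 members 67 were negative and 70 positive in these comparisons, so the signs are not particular to this list.

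Ribosomal proteins whose symbols fall outside the naming pattern included 1 that was called as deposited in both comparisons with cKO. Rps27l, a paralogue of Rps27 and a known p53 target, had control values of 46.3, 49.1, 49.3 and 45.6 TPM, cKO values of 61.7, 66.5, 76.5 and 70.6 TPM and dKO values of 54.0, 41.3, 39.0 and 46.5 TPM. All cKO embryos lay above all others. Of all tested genes, 32.7% were likewise higher in every cKO than in every control embryo. A share of 32.8% was lower in every dKO than in every cKO embryo. The log2 change was 0.52 ± 0.11 from control to cKO and -0.60 ± 0.11 from cKO to dKO (SE; limma adjusted p = 0.00486 and 0.00191). As deposited, 34.3% of all tested genes rose and 38.8% fell in these comparisons. After centring the change of Rps27l was 0.27 and -0.33, and neither passed the test (limma adjusted p = 0.207 and 0.118). In cKO against control it passed with quantile normalization (0.36, limma adjusted p = 0.0477) and protein-coding rescaling (0.37, limma adjusted p = 0.0438). In each of these comparisons it kept its call in 7 of the alternative settings that keep all embryos, and lost it in 2. Rps27 itself stood at 40.2, 42.0 and 48.1 TPM in the 3 groups.

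Of 13 such genes found in the files, 10 passed the filter on low values, and Rps27l was the 1 called in cKO against control and in dKO against cKO. Fau, the small subunit protein made as a fusion with a ubiquitin-like protein, stood at 173, 203 and 201 TPM (group means in the order control, cKO and dKO) and Rack1, a signalling scaffold on the small subunit, at 173, 177 and 171 TPM. Rps3a1, the small subunit protein near the mRNA exit, was at 374, 397 and 356 TPM. Rpl22l1, the paralogue of Rpl22, was at 52.0 to 63.5, 38.9 to 51.1 and 33.3 to 70.3 TPM, with log2 changes of -0.34 and -0.42 against control that did not pass the test (limma adjusted p = 0.193 and 0.266). Rps27rt, an intronless gene counted above among the copies of Rps27, was at 412 to 933 TPM. Rpl36al and Rpl7l1 had means of 142, 168 and 149 TPM and 34.5, 35.8 and 33.7 TPM, and Rps4l 4.12, 5.25 and 3.75 TPM. Rpl3l, known from striated muscle, and Rpl10l and Rpl39l, known from testis, were at most 0.1999 TPM in every embryo.

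**Figure D5:**
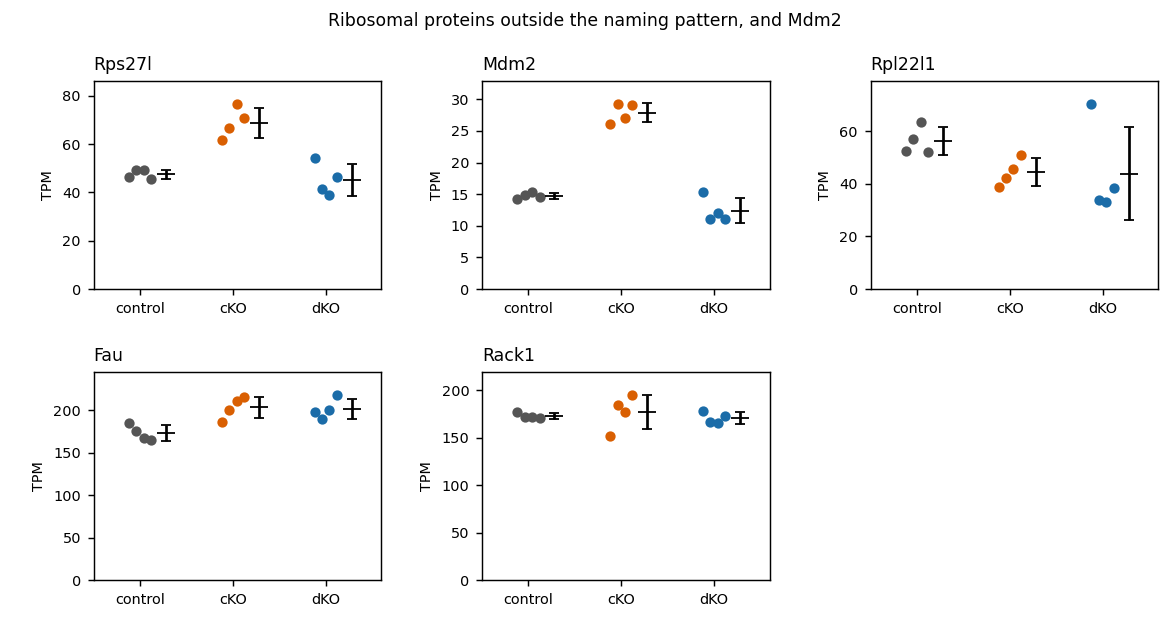
TPM in each embryo (points), with the mean and SD of 4 beside them, for Rps27l, Mdm2, Rpl22l1, Fau and Rack1. Rps27l and Mdm2 are higher in every cKO embryo than in any control or dKO embryo (61.7 to 76.5 TPM for Rps27l).

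The 78 mitochondrial ribosomal protein genes offer a contrast in which transcripts also serve a ribosome. As deposited, 17 rose in cKO against control and 25 fell in dKO against cKO, with medians of 0.19 and -0.22, against 0.25 and -0.26 over all tested genes, and none passed the test in the other direction. Of all tested genes 34.3% rose and 38.8% fell in these comparisons. After centring none was called in either comparison, and the medians were -0.06 and 0.05, against -0.14 and 0.23 for the cytosolic genes.

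The wider pathway is read beside all tested genes, of which 34.3% rose in cKO against control and 38.8% fell in dKO against cKO, and no list below is called particular. Of 17 translation factors and related genes with a pyrimidine tract, 3 rose in cKO against control, among them Eef2, which drives translocation, by 0.35, and Eef1g by 0.33 (limma adjusted p = 0.0308 and 0.0255); 1, Hnrnpa1, fell in dKO against control by 0.44, and 2 fell in dKO against cKO, Hnrnpa1 by 0.39 and Eef1g by 0.34. Of 15 tested regulators of the tract (mTOR, S6 kinase and LARP families), 7 rose in cKO and 4 fell in dKO against cKO. The S6 kinase gene Rps6kb2 changed most, with 0.47 and -0.69 (limma adjusted p = 0.012 and 0.00162), and its centred change in dKO against cKO was -0.42 (adjusted p = 0.0398). Mlst8, an mTOR complex subunit, followed with 0.46 and -0.39. Of 49 assembly factors, 6 rose in cKO and 9 fell in dKO against cKO. The strongest were Mdn1, the ATPase that strips factors from the pre-large subunit, at 0.68 and -0.51, and Utp20, of the small subunit processome, at 0.66 and -0.57. Both also rose in cKO after centring, by 0.43 and 0.41 (limma adjusted p = 0.00935 and 0.0252). In dKO against control, Noc2l rose by 0.57 and Utp14a fell by 0.32 (limma adjusted p = 0.00979 and 0.0462). Of 15 genes of RNA polymerase I and its factors, 3 rose in cKO, among them Rrn3, the initiation factor, by 0.47, and Polr1d by 0.32, and 4 fell in dKO against cKO, among them Taf1d by 0.53 and Rrn3 by 0.45. Polr1d rose in dKO against control by 0.27 (limma adjusted p = 0.0476). After centring none of the 15 passed the test.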

How the data were processed

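Expression was measured in 12 embryos, 4 per genotype. The values the authors deposited are TPM per gene symbol, a unit inferred from tables that name none and have the same sum in every embryo. Per the submitters' processing notes, HISAT2 and the build mm10 were used; the quantifier, its annotation and how it treated shared reads are not given in the sources used here. Depth per embryo is unknown from TPM, and no counting interval is given. Groups came from the sample labels, which do not say whether same-numbered embryos are littermates. The members and gene lists were chosen with earlier results of these data known. The scale was log2(TPM + 1), and the test was that of limma 3.58.1 under R 4.3.3 (lmFit, eBayes with trend, 1 fit of 3 groups) over the 11764 genes whose mean was 1 TPM or more, with Benjamini-Hochberg adjustment over all of them and a threshold of 0.05; changes are on that scale, which understates those of low genes. The procedure was tested on simulated data. Copies were found with blastn 2.17.0 in GENCODE M21. No set test was run, and no count test fits TPM.

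Genes named were the 5 highest and 3 lowest members, the 5 largest centred changes each way per comparison, Rpl5, Rpl11, Rpl26, Rps27a, the outside-pattern and 5S lists, the 2 most changed called genes of other lists, Rnu11 and Trp53, and any members in a count of 5 or fewer; other members named, such as Rps6 and Rpl23a, were chosen after their values were seen. A few genes that this rule names are not reported here by name, and remain in counts and sums. Alternatives were median-shift centring, quantile normalization, protein-coding rescaling, a pseudocount of 0.1, no filter, a mean of at least 5 TPM, the replicate number as a block, each embryo left out, and, chosen after seeing the data, copies added to each gene with and without centring, and centring with embryos left out. Same-numbered embryos did not deviate together in any of 12 pairs (correlation over 0.1), so numbers were not used as a block. No embryo pair had identical values. Python 3.11.15 and matplotlib 3.10.9 drew the plots.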

Additional observations from a re-analysis of the deposited data

Results flagged for a closer look

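In each group of 4 embryos, Dixon's ratio (the gap from the highest or lowest value to the next, over the whole range) was computed, and a ratio above its 95% critical value for 4 samples marked an embryo that stood apart. Of 234 groups tested, 15 exceeded it, where chance alone gives about 1 in 20, or 11.7. Embryo 4 of cKO, which had the highest sum of ribosomal protein TPM, was high for 7 genes. It stood at 1686 TPM for Rpl41 against 1371 to 1390 in the other cKO embryos (ratio 0.939), 1169 against 883 to 923 for Rplp1 (0.862) and 404 against 305 to 320 for Rpl39 (0.847). It also stood at 377 TPM against 307 to 312 for Rpl35 (0.926), 353 against 270 to 278 for Rpl15 (0.902), 316 against 193 to 213 for Rpl3 (0.841) and 245 against 173 to 184 for Rps27a (0.846). Embryo 1 of dKO was high for 4 genes, with 640.4 TPM against 518 to 536 for Rps4x (0.853), 426 against 325 to 340 for Rps18 (0.851), 241 against 202 to 208 for Rps14 (0.848) and 86.1 against 71.8 to 73.7 for Rpl6 (0.864). Among controls, embryo 1 stood at 172 TPM for Rps2 against 119 to 123 (0.936), embryo 4 at 101 for Rpl11 against 72.7 to 75.7 (0.894) and embryo 3 at 57.6 for Rpl10 against 52.0 to 52.8 (0.852). The share of the summed TPM held by copies was 53.6% in embryo 4 of dKO, against 54.1% in each of the other 3 (0.92).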

How the results depend on the processing

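As deposited, 4 members rose in cKO against control, none was called in dKO against control and 6 fell in dKO against cKO, with medians of 0.11, 0.06 and -0.04. For cKO against control, centring left 1 (Rpl12, lower), quantile normalization 0, protein-coding rescaling 0, no filter 1 (Rpl7a), a mean of at least 5 TPM 2 (Rpl7a and Rpl14), and copies with centring 0. The median turned to -0.14 with centring, -0.043 with protein-coding rescaling and -0.15 with copies and centring; the large minus small difference was 0.0046 with quantile normalization, against 0.06. With copies and centring Rpl21 was at -0.074 and Rpl7a at -0.014 (limma adjusted p = 0.738 and 0.948). For dKO against control, quantile normalization gave 3 (Rpl32, Rpl37a and Rplp1), protein-coding rescaling 4, copies 1 and copies with centring 2. For dKO against cKO, the direction of calls turned. Centring gave 9 higher, quantile normalization 3 higher (Rpl13, Rpl37a and Rps27), protein-coding rescaling 11 higher and copies with centring 12 higher. No filter left 2 lower (Rpl35a and Rpl36), and copies gave 1 higher (Rplp0). Of all tested genes 2.10% rose with centring, 1.36% with protein-coding rescaling, 2.23% with copies and centring and 0.555% with copies. No such share is given here for quantile normalization, no filter, a mean of at least 5 TPM or the replicate block. Counts at those settings, in any comparison, are therefore not read as particular to these genes. The median turned to 0.23 with centring, 0.049 with quantile normalization, 0.17 with protein-coding rescaling and 0.26 with copies and centring; the large minus small difference was -0.045 with copies, with or without centring, against -0.10. With copies, and with copies and centring, Rpl10 was at 0.080 and 0.35, Rpl11 at 0.036 and 0.31, Rpl29 at 0.40 and 0.67, and Rpl35a at 0.24 and 0.51. With centring, and with copies and centring, Rpl10a was at 0.023 and 0.044, and Rpl36 at 0.019 and 0.10. Copies were added after seeing the data; the cause of these changes was not tested.

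The replicate number pairs no embryos by label, and the deviations of same-numbered embryos correlated at -0.10 to 0.07 over 12 pairs; with the replicate block 1 member (Rpl7a) rose in cKO against control, 0 were called in dKO against control and 3 (Rpl10, Rpl29 and Rpl35a) fell in dKO against cKO. With each embryo left out, counts ran from 1 to 6, from 0 to 2 and from 1 to 5 in the order above, as described with each comparison. Rps27l and Mdm2 kept their calls in all 12 of these fits. Mdm2 kept them in the 9 other settings too, and Rps27l in 7 of those. TPM keeps no depth, so the precision that sequencing gave each value is unknown.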
